A study of Mus musculus with 6 samples.

Results

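The interferon response genes described here are a list of 39 genes that cells switch on when interferon reaches them, measured in whole colon of young mice with and without epithelial Indian hedgehog (Ihh). Members were taken as rows of the deposited array table that carry a single platform gene symbol, and the row with the highest mean was kept where a gene had several. By this rule 33 of the 39 listed genes had a row, out of 19938 genes tested. Of the other 6, Isg15, Gbp2, Gbp6, Igtp and Irgm2 lie only on rows shared with further genes and Ifi44 was not analysed here.

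The 3 mutant mice carried VilCre;Ihhflox/flox, in which a Cre recombinase driven by the villin promoter deletes Ihh, the gene of a secreted hedgehog ligand, in intestinal epithelium. The 3 control mice are labelled wild type, and no further genotype of theirs is stated. Mutant and control of one number were littermates, which gives 3 litters and 6 arrays, 1 per mouse. No treatment is stated for either group. The sources differ on age, with postnatal day 12 in the design text and day 9 to day 12 in the growth protocol. The tissue was dissected colon, so every value is a mixture of epithelium, muscle, vessels, nerves and blood cells. Expression is given as log2 values from RMA, every change is mutant minus control on that scale, and a value of one gene is never set against that of another.

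Interferons are secreted alarm signals. Type I and type III interferons act through paired receptors and Janus kinases on the STAT proteins, which with Irf9 bind a DNA element called ISRE, and type II interferon (interferon gamma) acts through its own receptor on an element called GAS. In the gut, epithelium and blood cells carry this programme at a low resting level that microbes and viruses can raise. Its products detect foreign nucleic acid, block viral replication, attack vacuoles that hold pathogens and load peptides for T cells.

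The promoters below are shown because they hold the element through which such genes are switched on as a group. Each is the stretch of 170 bases just before a RefSeq start site on assembly GRCm38.p6, written 5′ to 3′ on the strand of the gene. Capitals mark GAAANNGAAA, the core of an ISRE, on either strand (TTTCNNTTTC where it lies on the other strand), and in Irf1 they mark TTCNNNGAA, the core of a GAS.
Ifit1, chr19:34640719-34640888, plus strand: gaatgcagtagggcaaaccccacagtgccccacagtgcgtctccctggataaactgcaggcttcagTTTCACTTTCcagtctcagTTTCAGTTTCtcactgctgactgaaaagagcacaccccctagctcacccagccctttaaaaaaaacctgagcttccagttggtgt
Rsad2, chr12:26456453-26456622, minus strand: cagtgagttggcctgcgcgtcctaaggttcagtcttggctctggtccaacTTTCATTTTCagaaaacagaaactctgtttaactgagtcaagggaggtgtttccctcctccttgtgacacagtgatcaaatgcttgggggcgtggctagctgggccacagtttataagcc
Bst2, chr8:71537473-71537642, minus strand: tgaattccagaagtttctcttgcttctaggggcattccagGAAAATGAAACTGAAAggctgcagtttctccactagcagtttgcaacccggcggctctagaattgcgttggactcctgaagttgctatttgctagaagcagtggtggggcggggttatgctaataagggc
Irgm1, chr11:48871421-48871590, minus strand: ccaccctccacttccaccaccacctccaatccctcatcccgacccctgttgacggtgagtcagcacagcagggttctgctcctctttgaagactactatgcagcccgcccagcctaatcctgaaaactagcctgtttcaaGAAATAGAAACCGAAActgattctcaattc
Irf1, chr11:53769844-53770013, plus strand: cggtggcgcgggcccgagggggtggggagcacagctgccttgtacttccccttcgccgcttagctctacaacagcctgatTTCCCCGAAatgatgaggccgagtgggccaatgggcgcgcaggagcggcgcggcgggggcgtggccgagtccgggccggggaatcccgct

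Ifit1 holds 2 separate matches, and in Bst2 and Irgm1 a pair of matches overlaps. In Bst2 a TTCNNNGAA match, which is not marked, also overlaps the first of them. Of the 39 listed genes, 28 matched the promoter table by symbol. GAAANNGAAA stood in the 300-base window (250 before the start, 50 after) of 15 of these 28 genes (53.6%), beside 3.44% of all 32851 windows and 3.99% of all 27025 genes in that table. TTCNNNGAA stood in 9 of the 28 (32.1%), beside 8.30% of all windows and 9.55% of all genes. These are matches of letters and were not tested as binding sites. Among the measured members, the 11 with GAAANNGAAA had a median change of -0.05 and the 12 with a window but no match had -0.09.

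No interferon response gene passed the test of mutant against control. In the limma fit with the litter as a block, with p-values adjusted over all genes tested, 0 of 33 members were higher and 0 were lower, while 3.77% of all genes were called (1.66% higher and 2.11% lower in mutants). The smallest adjusted p of a member was 0.135. At an unadjusted p under 0.05 there were 4 members (12.1%), beside 15.1% of all genes. Of the 33 changes 22 lay below 0 and 11 above, between -0.39 and 0.31, with a median of -0.05 (0.01 over all genes). All mutants stood below all controls for 1 member, Irf1, where this held for 9.78% of all genes, and above them for 0 members, beside 10% of all genes. The same sign in all 3 litters was seen for 5 members as lower (17.1% of all genes) and for 1 as higher (18.8%).

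The fit also bounds the changes. The 95% interval of each of the 33 members lay inside ±1, so a 2-fold change of the mean lay outside every interval, and for 25 members (75.8%) it lay inside ±0.5. Over all genes tested these shares were 98.6% and 88.8%, so the tighter bound was met by a smaller share of the members. The widest limits were -0.82 for Ifit1 and 0.68 for Rsad2. These intervals are not adjusted for the number of genes. They and every ± SE here use a variance drawn in part from all genes. For a member whose litters differ widely, such as Ifit1 (-0.36, -0.98 and 0.34 in litters 1 to 3), the bound therefore leans on other genes. Intervals from the 3 differences of a gene alone were not computed. Fewer cells of a type and less RNA per cell cannot be told apart in whole tissue, for any of the values here.

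**Figure D1:**
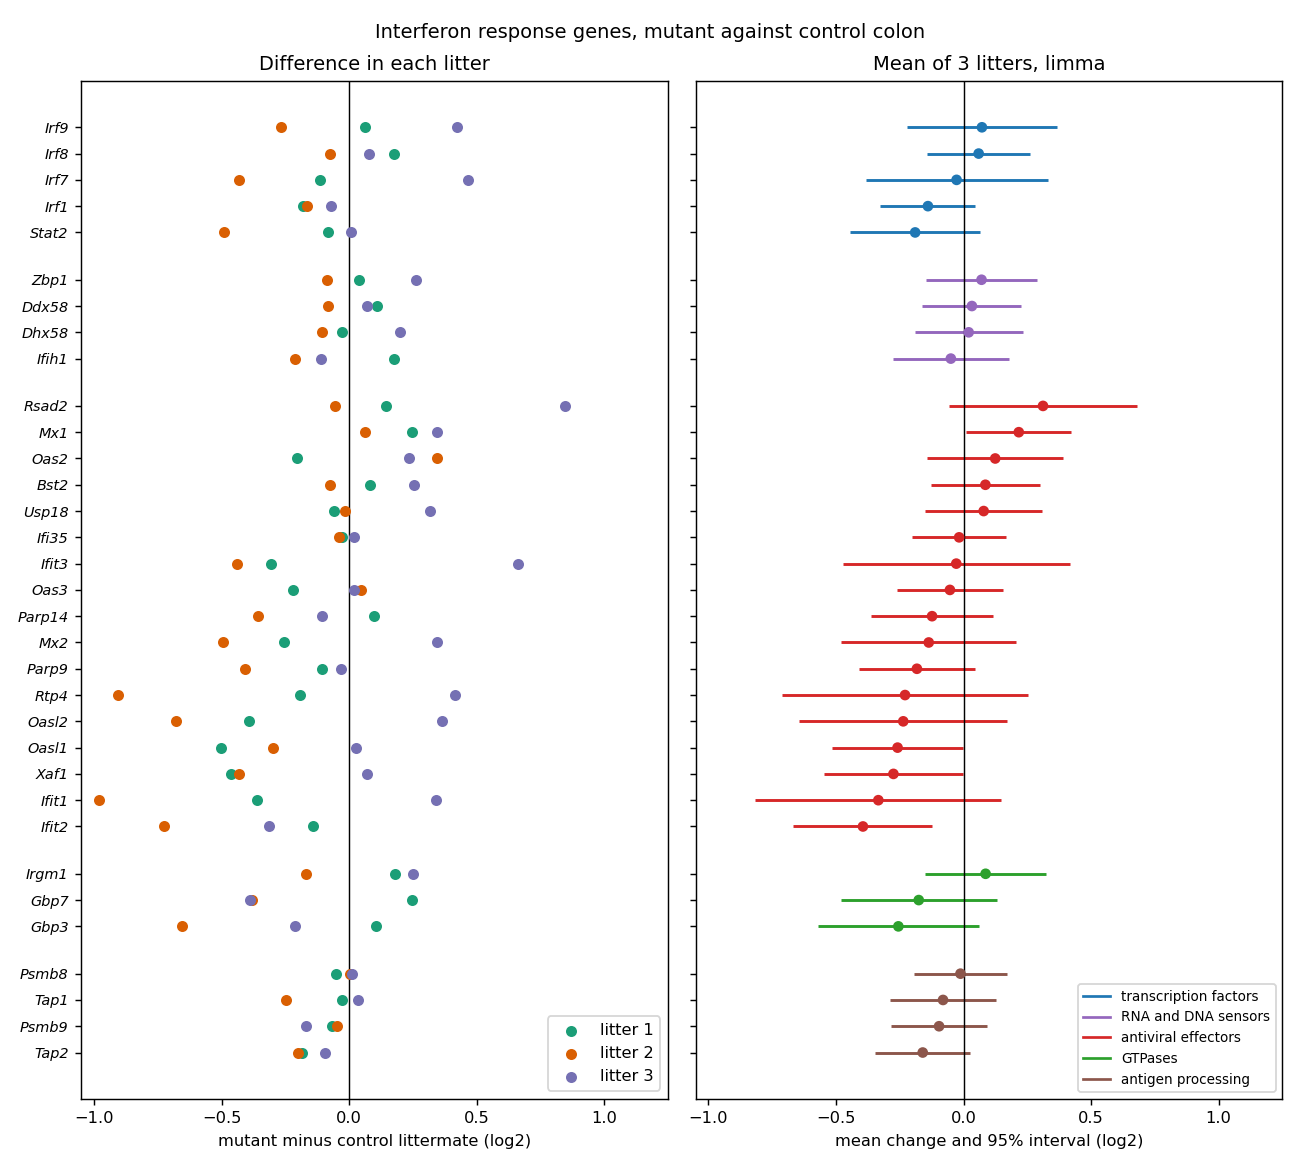
Change of each of the 33 measured members, grouped by role. The left panel gives mutant minus control in each litter (log2, 1 point per litter), the right panel the mean of 3 litters with its 95% interval from the limma fit. The orange points of litter 2 lie mostly to the left of 0 (29 of 33) and the purple points of litter 3 mostly to the right (24 of 33), and every interval stays inside ±1.

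Transcription factors of the response were close to their control level. Stat2, part of the factor that binds ISRE, stood at 8.63, 8.80 and 8.61 in the controls of litters 1 to 3 and at 8.54, 8.31 and 8.61 in the mutants of the same litters. Mutant 2 was the lowest of the 6 mice, and the groups overlapped. Its change of -0.19 ± 0.11 (SE) was the largest of this group by size and did not pass (limma adjusted p = 0.506). Without litter 2 it was -0.04. Irf1, a factor that interferon gamma induces and whose promoter with a GAS core is printed above, was 8.87, 8.96 and 8.85 in controls and 8.69, 8.79 and 8.78 in mutants. It was the member without overlap between the groups, with a change of -0.14 ± 0.08 (adjusted p = 0.499). Its other row on the array stood at -0.11. Irf7, the factor that amplifies type I interferon, was 8.76, 8.99 and 8.63 in controls and 8.64, 8.56 and 9.09 in mutants, so that mutant 3 was the highest and mutant 2 the lowest mouse. Irf9 was likewise highest in mutant 3, and the mean changes were -0.03 for Irf7, 0.07 for Irf9 and 0.06 for Irf8, a factor of myeloid and B cells.

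The sensors of foreign nucleic acid had the smallest changes of the 5 roles. Zbp1, a sensor of Z-form nucleic acid that can start cell death, was 6.92, 7.12 and 6.95 in controls and 6.96, 7.03 and 7.21 in mutants, a change of 0.07 ± 0.09 (adjusted p = 0.830). Mutant 3 was again the highest mouse, within 0.09 of control 2. The RNA helicases Ifih1 (MDA5), Ddx58 (RIG-I) and Dhx58 (LGP2) had changes of -0.05, 0.03 and 0.02. The intervals of all 4 sensors lay between -0.28 and 0.29.

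Antiviral effectors held the largest changes of either sign among the 33 measured members, with 12 of 17 below 0. Ifit2, which binds foreign RNA and restrains translation, was 7.16, 7.45 and 7.52 in controls and 7.02, 6.73 and 7.20 in mutants. Each mutant lay below its littermate, by 0.14, 0.73 and 0.31, and mutant 3 overlapped control 1. The mean change was -0.39 ± 0.12, a 1.31-fold lower level. It was the largest by size among the 33 measured members and did not pass (limma adjusted p = 0.135). With array weights in the fit it did pass, at -0.45 and adjusted p = 0.0466, and without litter 2 it was -0.23 with adjusted p = 0.527. Ifit1, its neighbour on the same chromosome, was 6.94, 7.53 and 6.99 in controls and 6.58, 6.55 and 7.33 in mutants. Mutants 1 and 2 were below every control while mutant 3 was above 2 of the 3 controls. The change over 3 litters was -0.33 ± 0.21 (adjusted p = 0.544), and without litter 3 it was -0.67 with adjusted p = 0.0348, the only member called when that litter was left out. Without litter 2 the change was -0.01 (adjusted p = 0.997). Ifit3 was 5.98, 6.11 and 6.06 in controls and 5.67, 5.67 and 6.72 in mutants, so mutants 1 and 2 were below and mutant 3 above every control, and the mean change was -0.03.

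Oasl1, an oligoadenylate synthetase-like protein that restrains translation of Irf7, was 7.90, 7.79 and 7.88 in controls and 7.40, 7.49 and 7.91 in mutants. Mutants 1 and 2 were below all controls and mutant 3 was the highest mouse. The change of -0.26 ± 0.11 did not pass (adjusted p = 0.325), nor did it without litter 3 (-0.40, adjusted p = 0.163). Xaf1, which opposes an inhibitor of cell death, was 7.17, 7.17 and 6.94 in controls and 6.71, 6.74 and 7.01 in mutants, with mutant 3 inside the control range. Its change was -0.27 ± 0.12 (adjusted p = 0.325). Parp9, an ADP-ribosyltransferase family member that acts in interferon signalling, was 8.04, 8.32 and 8.17 in controls and 7.94, 7.91 and 8.14 in mutants. It was lower in each mutant than in its littermate, with a change of -0.18 ± 0.10 (adjusted p = 0.459) that was -0.07 without litter 2, and the groups overlapped through mutant 3.

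The other 5 effectors had changes above 0. Rsad2 (viperin), which makes a chain terminator of viral RNA synthesis, was 5.99, 6.11 and 6.09 in controls and 6.14, 6.06 and 6.93 in mutants. The mean change of 0.31 ± 0.16 (adjusted p = 0.430) did not pass and was 0.05 without litter 3. Mutants 1 and 2 differed from their littermates by 0.15 and -0.06. Mx1, a dynamin-like GTPase that blocks influenza virus, was 5.27, 5.42 and 5.58 in controls and 5.52, 5.48 and 5.92 in mutants. It was the single member higher in the mutant of all 3 litters, with a change of 0.22 ± 0.09 (adjusted p = 0.303), and the groups overlapped. Rsad2, Mx1, Mx2, Ifit3, Oas3 and Dhx58 were among the dimmest 30% of genes on these arrays, where a signal may lie close to background, which was not measured here. Of the remaining effectors, Bst2 (tetherin, 0.09), Usp18 (the protease that removes Isg15 from proteins, 0.08), Oas2 (0.12), Ifi35 (-0.02) and Parp14 (-0.12) stayed within ±0.15, while Oasl2 and Rtp4 stood at -0.24 and -0.23.

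**Figure D2:**
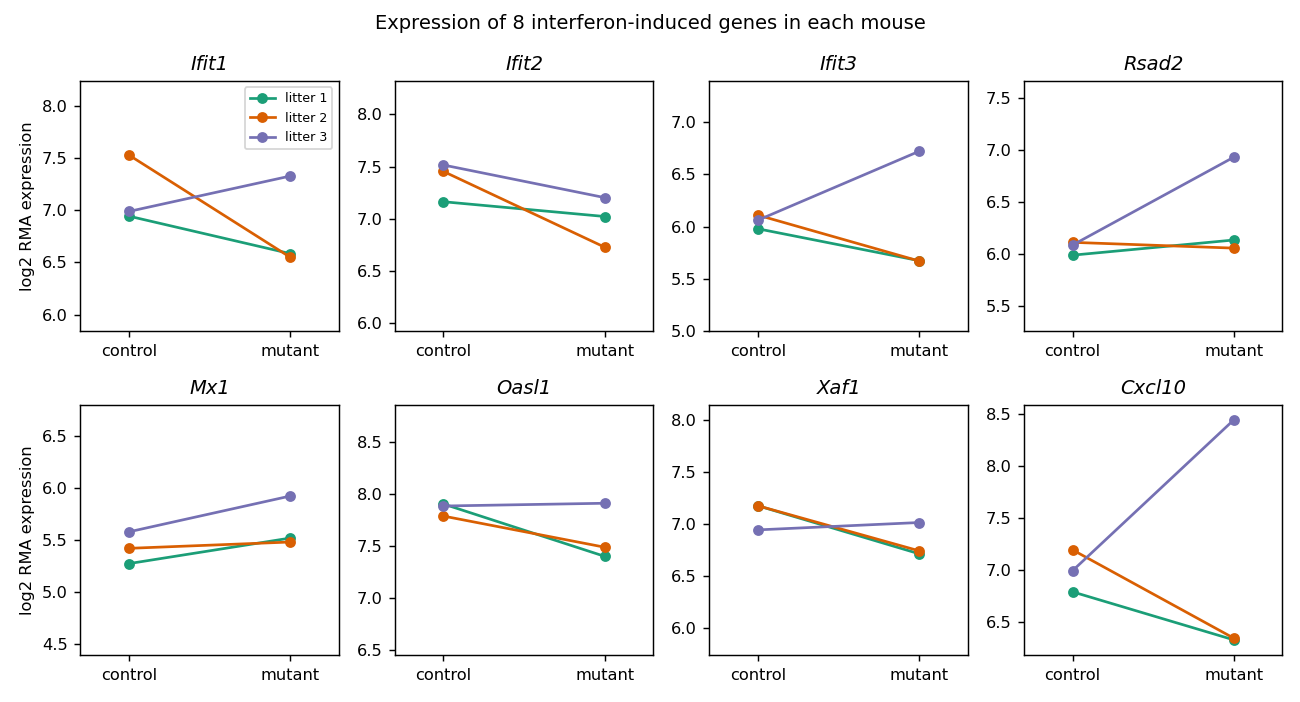
Log2 RMA expression of 7 members and of Cxcl10, an interferon-induced chemokine gene outside the list, in control and mutant of each litter (1 line per litter; all panels span the same range of 2.4 log2 units). The mutant of litter 3, in purple, is the highest mutant in every panel (7.33 for Ifit1, 8.44 for Cxcl10). The mutants of litters 1 and 2 lie below their littermates for Ifit1, Ifit2, Ifit3, Oasl1, Xaf1 and Cxcl10. Ifit1, Ifit3 and Cxcl10 were picked out after their values were seen. Among members not shown, mutant 3 was not the highest mutant for Irf1, Irf8 and Gbp7.

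The GTPases that attack pathogen vacuoles, and which interferon gamma induces strongly, did not pass either. Gbp3, a guanylate-binding protein, was 6.79, 7.36 and 7.40 in controls and 6.89, 6.70 and 7.19 in mutants. Control 1 lay within the range of the mutants, and the change was -0.26 ± 0.14 (adjusted p = 0.459), with -0.05 without litter 2 and -0.44 without litter 1. Gbp7 and Irgm1 had changes of -0.18 and 0.09. The 4 rows shared with other genes were read for the missing members with p-values adjusted over all rows of the table. The row of Isg15, a ubiquitin-like modifier, and Gm9706 stood at 0.20 ± 0.10, the row of Gbp2 and Gbp2b at -0.41 ± 0.16, the row of Gbp6 and 5 other Gbp genes at -0.41 ± 0.16, and the row of Igtp and Irgm2 at -0.10 ± 0.14. None passed (limma adjusted p from 0.461 to 0.875), but that fit called only 0.00562% of all rows, so these p-values say little about the members. Which gene such a row reports is uncertain.

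Antigen processing genes had the smallest errors among the roles, with a median SE of 0.08. Tap2, one chain of the transporter that carries peptides to MHC class I, was 7.58, 7.75 and 7.72 in controls and 7.39, 7.55 and 7.62 in mutants. It was lower in each mutant than in its littermate, the groups overlapped through mutant 3, and the change of -0.16 ± 0.08 did not pass (adjusted p = 0.422). The partner chain Tap1 and the immunoproteasome subunits Psmb9 and Psmb8 had changes of -0.08, -0.10 and -0.01. All 4 genes were at their lowest in mutant 1.

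Single mice stood apart across many members. Mutant 3 was the highest of the 6 mice for 15 of 33 members (45.5%, beside 16.2% of all genes), and mutant 2 the lowest for 13 (39.4%, beside 13.7%). Control 2 was the highest for another 12 (3051 of all 19938 genes), and mutant 1 the lowest for another 10 (30.3%, beside 20% of all genes). The median deviation of the members from their own mean over 6 arrays came to -0.05, 0.13 and 0.03 in the 3 controls and to -0.13, -0.10 and 0.13 in the 3 mutants. The range over the mutants was wider than over the controls for 22 of 33 members (66.7%, beside 51.9% of all genes), and for 14 of the 17 antiviral effectors.

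**Figure D3:**
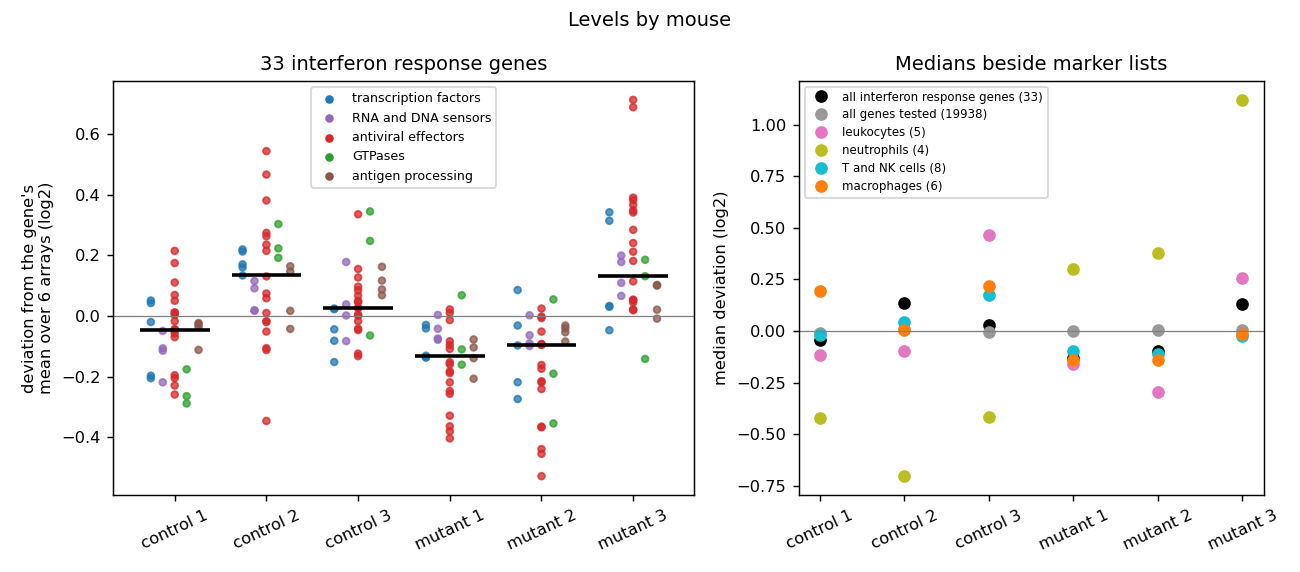
Left, deviation of each member from its own mean over the 6 arrays (log2), by mouse, with the role as colour and the median of the 33 members as a bar. Right, the same medians beside those of all genes tested and of marker lists (number of genes in brackets). Members are highest in control 2 and mutant 3 (medians 0.13 each), and the neutrophil list is highest in mutant 3 (1.12) and lowest in control 2 (-0.70).

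By litter, the median mutant minus control difference of the members came to -0.06, -0.21 and 0.07 in litters 1 to 3, beside 0.01, 0.00 and 0.01 over all genes. In litter 2 the mutant was lower for 29 of 33 members (9959 of all 19938 genes). In litter 3 it was higher for 24 (72.7%, beside 51.6% of all genes). A decrease in litter 2 together with an increase in litter 3 was seen for 20 members (60.6%, beside 19.7% of all genes), and the opposite for 0 (18.1% of all genes). The gap between these litters was widest for Ifit1 (1.32), Rtp4, a chaperone of receptors (1.32), Ifit3 (1.10) and Oasl2 (1.04), and narrow for Irf1 (0.09) and Psmb8 (0.01). It ran the other way for Psmb9 (-0.12), Oas2 (-0.11), Oas3 (-0.03) and Gbp7 (-0.007). Litters 2 and 3 held the lowest and highest median of the members, so the contrast between them was set by the values themselves. Past 0.3 in size, litter 2 had 13 members lower and 1 higher (8.08% and 5.94% of all genes). Litter 3 had 2 lower and 10 higher (7.58% and 7.09% of all genes), and litter 1 had 5 lower and 0 higher (9.65% and 10.9%). Each litter has 1 mouse per genotype, so a difference between litters has no replicate and was not tested.

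Markers of blood cells are given beside these levels, and their part in them was not tested. The mean level of 4 neutrophil markers was between 5.16 and 5.34 in controls and was 6.07, 6.15 and 6.67 in mutants 1 to 3. Of these, 3 passed as higher in mutants (S100a8, S100a9 and Cxcr2) and Mpo did not (0.01). Over 5 general leukocyte markers the mean level was 8.13, 8.26 and 8.74 in controls and 8.10 to 8.57 in mutants, highest in control 3, with none called. Macrophage markers (0 of 6 called) lay between 8.37 and 8.53 in controls and between 8.19 and 8.33 in mutants. Of 5 markers of plasmacytoid dendritic cells, a major source of type I interferon, 1 passed as lower, Tcf4 (-0.62), which many stromal cells also express. At an unadjusted limma p under 0.05, 3 of the 5 were lower (60%, beside 8.03% of all genes), namely Tcf4, Siglech (-0.22) and Ccr9 (-0.26). The other 2, Pacsin1 and Bst2, had changes above 0, and Bst2 is itself a member. Of 8 T and NK cell markers 1 passed as lower, Cd4 (-0.43), and of 3 B cell markers none. Over all genes 1.66% were called higher and 2.11% lower, so 0 or 1 calls in lists this short say little about the cell types.

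No ligand, receptor or kinase upstream of the response passed the test. Of 16 measured interferon genes 0 were called higher and 0 lower in limma, beside 1.66% and 2.11% of all genes. At an unadjusted p under 0.05 there was 1, beside 15.1% of all genes. Many interferon genes lie near the lower end of the array's range (11 among the dimmest 30%). Ifng, the gene of interferon gamma, was 5.98, 6.12 and 5.77 in controls and 5.96, 6.11 and 6.01 in mutants (0.07 ± 0.09, adjusted p = 0.815). Of 9 receptor chains and Janus kinases 0 were called and 0 had an unadjusted p under 0.05 (3.77% and 15.1% of all genes). With such shares over all genes, 0 calls in lists this short say little about the lists. The type I receptor chains Ifnar1 and Ifnar2 stood at -0.07 ± 0.09 and -0.01 ± 0.09, the type II chains Ifngr1 and Ifngr2 at -0.12 ± 0.10 and -0.14 ± 0.11, and Ifnlr1, the epithelial type III chain, at 0.12 ± 0.10.

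A negative regulator and a pair of membrane proteins outside the list did rise. They were the 3 calls among 103 other pathway genes, beside 3.77% of all genes called, so the number of calls does not set these lists apart. Socs3, an inhibitor of Janus kinase signalling that interleukins also induce, was 8.06, 8.10 and 7.87 in controls and 8.48, 8.55 and 8.53 in mutants. All mutants were above all controls, and the change of 0.51 ± 0.09 passed (limma adjusted p = 0.0205). Socs3 was the 1 gene called among 20 sensing adapters and regulators, 0 of which fell (1.66% higher and 2.11% lower over all genes). Without litter 3 its change was 0.44 and no longer passed (adjusted p = 0.102). With its array rows averaged the change was 0.31 and did not pass either (adjusted p = 0.103).

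Of 58 further interferon-induced genes 2 rose and 0 fell, beside 1.66% and 2.11% of all genes. Ifitm1, a membrane protein that blocks virus entry, was 9.45, 9.39 and 9.42 in controls and 10.24, 10.11 and 10.04 in mutants. All mutants were above all controls, and the change of 0.71 ± 0.08 (1.64-fold) passed with adjusted p = 0.00499. Ifitm3, a related protein, also without overlap between the groups, was 10.5, 10.2 and 10.2 in controls and 10.8, 10.7 and 10.7 in mutants, a change of 0.43 ± 0.09 with adjusted p = 0.0411. It no longer passed without litter 2 (0.146) or without litter 3 (0.152). Ifitm2, a further family member, stood at 0.18 ± 0.12 (adjusted p = 0.556). The median over the 58 genes was -0.03, beside -0.05 for the 33 members, and 7 of 58 were lower and 6 higher at an unadjusted p under 0.05 (8.03% and 7.05% of all genes).

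**Figure D4:**
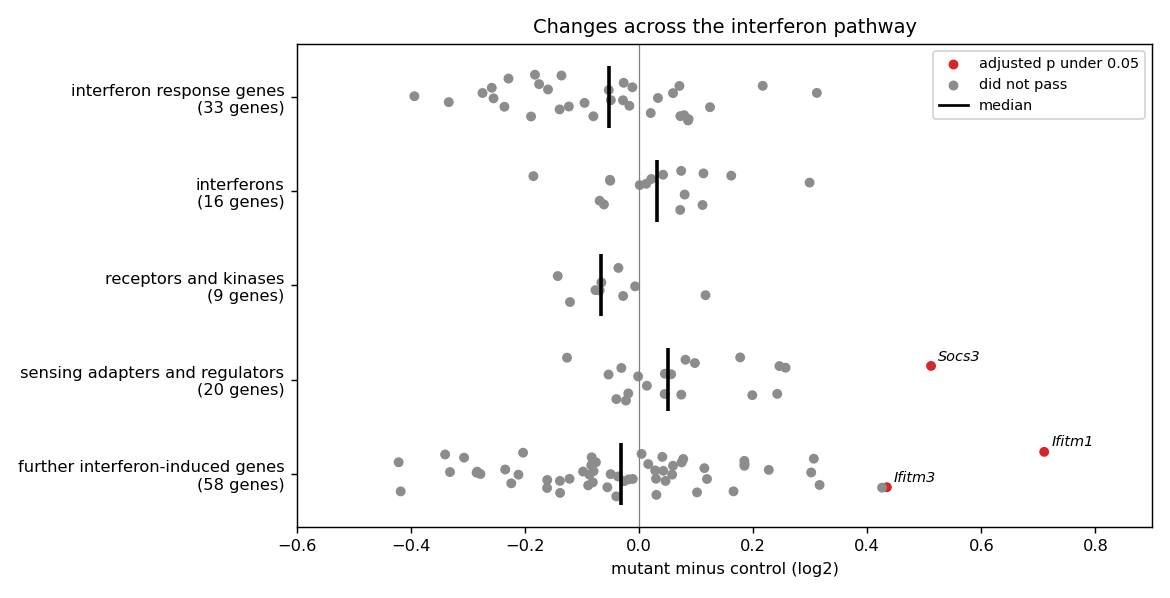
Change of each gene (log2, mean of 3 litters) in the 33 members and in 4 lists of other interferon pathway genes, with list medians as bars and genes past the limma test in red. Red points are Socs3, Ifitm1 and Ifitm3, and no member is red.

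Cxcl10, a chemokine that interferons induce and which was picked out after its values were seen, spread widely over the mutants. It was 6.793, 7.196 and 6.995 in controls and 6.33, 6.35 and 8.44 in mutants, so mutants 1 and 2 were the lowest mice and mutant 3 the highest. The SD over mutants was 1.22 against 0.20 over controls, and the mean change was 0.05 ± 0.37 (adjusted p = 0.980). The differences in litters 1 to 3 were -0.46, -0.85 and 1.45. Without litter 3 the mean change was -0.66 with limma adjusted p = 0.0221. That fit leaves out the litter that stood apart when the gene was picked, so its p-value is not an independent test.

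Hedgehog target genes carried the genotype difference of the labels, while the Ihh row itself did not pass. Ihh itself was lower in each mutant, by a mean of 0.30 ± 0.09 without passing (adjusted p = 0.139), while its target Ptch1 fell by 1.44 ± 0.09 (limma adjusted p = 0.000493). The targets Gli1 (-0.78 ± 0.08, adjusted p = 0.00355) and Hhip (-2.16 ± 0.13, adjusted p = 0.000493) fell too. All mutants were below all controls for each of these targets. The Ihh row summarises probes along the transcript, and the deleted stretch is not stated, so it is an incomplete check of the labels. Calls in the short marker lists that follow stand beside 1.66% of all genes called higher and 2.11% called lower. Of 5 epithelial markers 1 rose, Krt18 (0.60, limma adjusted p = 0.00774). Of 5 colon markers Aqp8 fell (-1.29, adjusted p = 0.0107). The other 4 colon markers had changes above 0 and did not pass: Car1 (0.63), Slc26a3 (0.51), Muc2 (0.35) and Cdx2 (0.20). Of 6 small intestinal markers Fabp2 rose (0.73, adjusted p = 0.0415). Changes in that list were above 0 for 5 genes and below 0 for Alpi (-0.59), which did not pass. Among stromal markers Myh11 (-0.56) and Des (-0.83) of smooth muscle and Cdh5 (-0.42) and Kdr (-0.61) of endothelium fell (limma adjusted p from 0.00695 to 0.0332). Mean levels over the small intestinal list were 7.49 to 7.85 in controls and 8.01 to 8.28 in mutants, with Apoa4 highest in mutant 1 (11.2) and Fabp6 in mutant 2 (7.79). What part these markers have in the values of the interferon response genes was not tested.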

How the data were processed

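The log2 values used were deposited by the authors and made with RMA, per the submitters' processing notes. Neither its version nor a genome build is given in the sources used here. The file covers 6 arrays over 35557 rows, with 0 columns of other samples. Array medians were 7.10 to 7.14. Arrays carry no counts, and 3 per group limit the precision. Rows were named through the platform annotation of 2016: 21789 had 1 symbol, 1621 several and 12147 none, which left 19938 genes at their highest-mean row.

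Mutant was compared with control in limma 3.58.1 (R 4.3.3; lmFit, eBayes, two-sided, Benjamini-Hochberg over 19938 genes, calls at adjusted p under 0.05). Litter entered as a fixed block, since the design text calls the samples littermate pairs. Across genes, the departures of mutant and control littermates from their groups had correlations of 0.0128, 0.00516 and 0.0613, so the pairing rests on the labels. The fit has 2 residual and 5.85 prior degrees of freedom per gene, so p-values, SEs and intervals lean on the shared prior. Each mouse is a separate animal. The script was tested on simulated data.

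The members and lists were chosen with earlier results of these data known. All members are described by role; values in every array were given for the 8 members with the smallest p, the largest change of each role, pathway genes that passed and Ifng, with changes alone for 5 receptor genes. Irf1, Irf7, Ifit1, Ifit3, Cxcl10 and marker genes were picked out after their values were seen. Promoters came from RefSeq on GRCm38.p6.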

Additional observations from a re-analysis of the deposited data

How the results depend on the processing

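The counts of calls, the median change and 19 named genes were recomputed under 11 alternatives, apart from Mx1, Rsad2 and Ifng without the dimmest genes, which leaves them out. Marker, promoter and litter values were not. The members called stayed at 0 higher throughout and at 0 lower except for 1 with array weights (Ifit2) and 1 without litter 3 (Ifit1), so that leaving out a litter gave 0 to 1 lower. Their median change ran from -0.10 without litter 3 to 0.00342 without litter 2. Without the litter block the 0 calls stood, with the smallest adjusted p of a member at 0.195 and 638 genes called in all, against 751. With array weights 1246 genes were called and without litter 3 546 were. With all 35557 rows tested 2 were, where the prior fell to 3.01 degrees of freedom.

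Of the other pathway genes 3 were called higher, 0 with all rows tested and 1 to 3 with a litter left out. Lgals9, at 0.43 with adjusted p = 0.0545, was gained with trend and robust eBayes, without the dimmest genes, under median centring and with array weights, for 4 calls each, and it was also called without the block (adjusted p = 0.033) and without litter 2. None was lower, but 1 was with trend and robust eBayes (Parp12), 1 without the dimmest genes (Parp12), 1 under quantile normalization (Gbp11), 2 with array weights (both genes) and 0 to 2 with a litter left out. Ifitm3 was lost without the block (adjusted p = 0.0553) and under quantile normalization (0.0625), and Socs3 when a gene's rows were averaged (0.103). Signs turned for Ifnar2 under median centring (0.0176), with array weights (0.0242) and over the fits that leave out a litter (-0.0732 to 0.0593). Over those fits Zbp1 ran from -0.0244 to 0.15, Ifnar1 from -0.112 to 0.0163 and Ifng from -0.0125 to 0.117. None of these was a call. Where the construction does not show it, the cause was not tested.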
